A study of Mus musculus with 4 samples.

Results

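Receptors for chemokines and for lipid chemoattractants were examined in conventional dendritic cells of type 2 (cDC2) sorted from mouse spleen. The receptors were fixed as a list of 36 symbols, taken with the probe sets annotated to exactly 1 of them and, where a gene had several, the brightest. In the array table, 33 of the 36 receptors had such a probe set, each of the 33 a single one, among 19938 genes measured in this way. Fpr1, Fpr2 and Ltb4r2 were not analysed here. Affymetrix arrays were available for 4 samples, of which the labels call 2 wild type (WT) and the other 2 Id2 knockout (Id2 KO). By their labels the WT samples were splenic cDC2 from chimeras that carried the Zbtb46-GFP reporter, a green fluorescent protein that reports Zbtb46, which marks the conventional dendritic cell lineage. The Id2 KO samples were splenic cDC2 of chimeric mice carrying the Id2 knockout as well as the same reporter. Age, host strain, donor marrow, the share of host cells left, the deleted part of Id2 and whether animals were pooled were not given in the sources used here. The series' design sentence names bone marrow as the source of the sorted cells, while every sample label names the spleen. Whether the 2 samples of a group are separate mice is not stated. The p-values given here therefore reflect sample-to-sample spread alone, and that spread may be technical.

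The receptors described here are membrane proteins that couple to G proteins and steer cell movement along gradients of their ligands. In the spleen, Gpr183 responds to oxysterols and places cDC2 at the bridging channels of the marginal zone, S1pr1 responds to sphingosine phosphate in blood and lymph, and Ccr7 responds to Ccl19 and Ccl21 and draws dendritic cells into the T cell zone. Inflammatory receptors such as Cxcr2, Ccr1, Ccr2 and Ltb4r1 instead bring leukocytes to sites of infection or damage. Id2 is a helix-loop-helix protein that binds E proteins and keeps them from E-boxes, the DNA motif CANNTG.

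S1pr1 and Ccr7 rose in the arrays labelled Id2 KO, by 0.42 and 0.35 on the log2 scale, while Gpr183 differed by -0.05 and did not pass the test. Cxcr2 (-1.44), Ltb4r1 (-0.58) and Cxcr3 (-0.43) of the inflammatory receptors fell, as did the leukotriene receptor gene Cysltr1 (-0.39). The other 16 of the 22 receptors tested did not pass, among them Cxcr4, Cx3cr1, Ptafr and Gpr132. Differences are of log2 intensity, Id2 KO minus WT, fitted with limma over the 11963 genes whose mean lay above a filter level of log2 6.77, and p-values adjusted by Benjamini-Hochberg were called under 0.05.

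Of the 22 tested receptors, 2 rose and 4 fell, or 9.09% and 18.2%, against 5.53% higher and 2.52% lower among all tested genes (8.04% called in either direction). Among the 4 that fell, Cxcr2 lay below the filter level on both Id2 KO arrays and was tested only because of its WT level. The median difference of the tested receptors was -0.05, beside 0.01 over all tested genes, and over all 33 measured receptors it was -0.06, beside -0.01 over all genes. The other 11 receptors had means below the filter level and 9 of them lay below it on every array, so no test of them stands in the counts above. Of the 33, 10 had both Id2 KO arrays above both WT arrays and 15 had both below, against 20.9% and 23.2% of all measured genes, and 8 overlapped. Among the 22 tested, 6 lay above and 10 below in this way, against 27.9% and 22.8% of tested genes. Without a filter, 2 of the 33 rose (S1pr1 and Cxcr5) and 7 fell, against 2.75% higher and 1.42% lower among all genes (4.17% called in either direction). The number of calls rested on both WT arrays: without WT replicate 1, 2 receptors passed, and without WT replicate 2, 2 passed, both times lower ones. With each array centred on the median of the tested genes, a setting added after the data were seen, 1 receptor rose and 5 fell, and the count of all tested genes called split into 573 higher and 470 lower in place of 661 and 301.

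**Figure D1:**
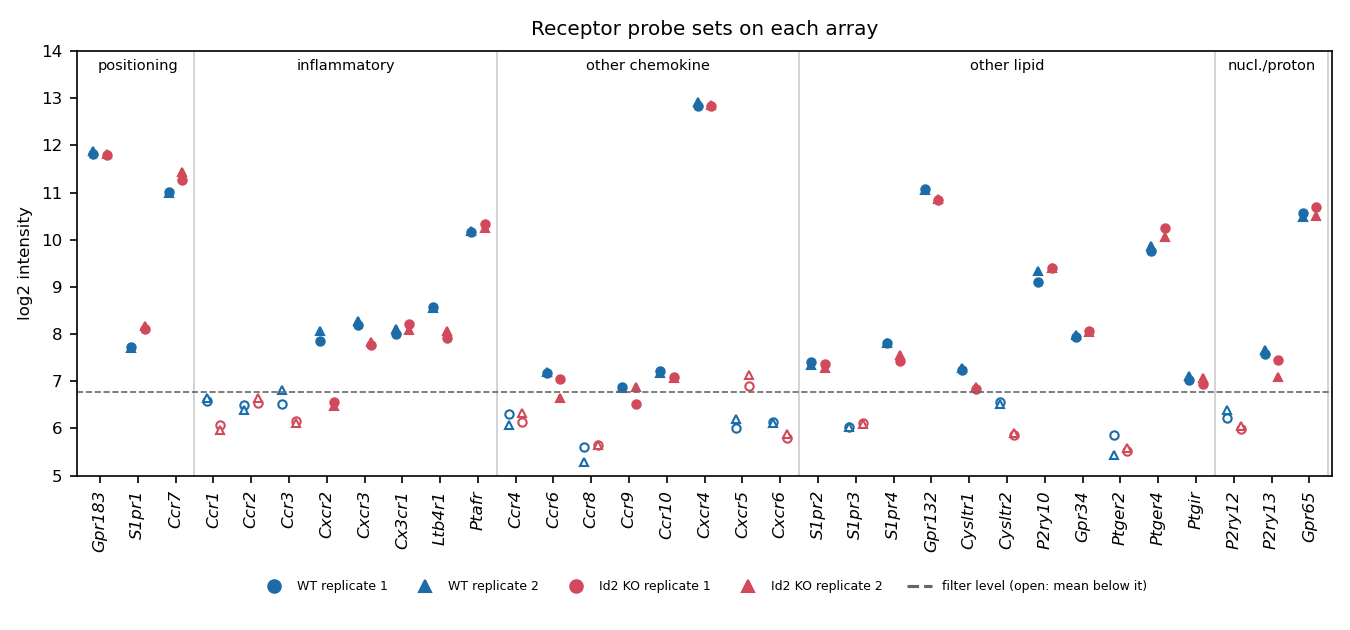
Log2 intensity of each receptor probe set (horizontal axis, grouped by role) on the 4 arrays. Blue marks WT and red Id2 KO, circles replicate 1 and triangles replicate 2; the dashed line is the filter level of 6.77 and open marks are receptors whose mean lies below it. Groups separate widely for Cxcr2 and slightly or not at all for most others; heights of different probe sets are not comparable with each other.

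Several features of the samples bear on these values. Id2 itself read log2 9.14 and 9.08 in WT against 8.71 and 8.97 in Id2 KO, a difference of -0.27 that did not pass (limma, adjusted p = 0.172) except without KO replicate 2 (-0.40, adjusted p = 0.0326). The probe set may lie outside the deleted part, which is not given, and then checks nothing. Among defining genes of cDC2, Itgax (12.85 ± 0.01 and 12.83 ± 0.03), Flt3 (11.28 ± 0.09 and 11.38 ± 0.27) and Sirpa (12.40 ± 0.02 and 12.17 ± 0.04; mean ± SD, WT then Id2 KO, n = 2 each) were bright in both groups, whereas Itgam (from 10.77 ± 0.00 to 9.78 ± 0.41), Cd4 (-0.84) and Zbtb46 (-1.02, a size not settled because both Id2 KO values lay below the filter level) fell, Esam rose (0.53; 0.39 and adjusted p = 0.12 without WT replicate 1) and Clec10a lay below the filter level. Of the 9 tested cDC2 markers, 3 fell (33.3%) and 1 rose (11.1%), beside 2.52% lower and 5.53% higher calls among all tested genes. Clec4a4 (-0.29, limma, adjusted p = 0.0917) was lower on both Id2 KO arrays and did not pass, nor did Irf4 (-0.18). Markers of other cells moved with the groups too, beside the same shares among all tested genes. Of the markers counted next, Mmp8, Mpo, Prtn3, Chil3 and Slc40a1 lay below the filter level on both Id2 KO arrays, and Cr2 on both WT arrays. These were tested only because of their level in the other group, and the sizes of their differences are not settled. All 11 neutrophil markers fell, with a summed intensity of 17752 and 18397 in WT against 1469 and 2387 in Id2 KO, and all 4 tested monocyte, 5 of 7 tested red pulp macrophage and both tested erythroid markers fell. All 7 tested B cell markers rose, with a summed intensity of 1046 and 1052 in WT against 2305 and 2651 in Id2 KO, as did 4 of 7 tested pDC and 3 of 8 tested mature dendritic cell markers. Of T and NK cell markers 1 of 5 tested fell, of cDC1 markers 1 of 5 tested, and none of 2 tested basophil, mast cell and eosinophil or 4 tested platelet markers passed in limma, with 1 of each (Prss34 and Itgb3) at an unadjusted p under 0.05. Among the sex-linked genes, Xist was at 11.96 on both WT arrays and at 6.67 and 6.68 on the Id2 KO arrays, and the Y-linked Kdm5d rose from 5.63 ± 0.14 to 8.29 ± 0.29 (SD, n = 2 each). Sex-linked levels separated the arrays exactly as genotype did, and for no receptor can these be told apart. In such bulk samples, fewer cells of a type and less RNA per cell also cannot be told apart.

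Gpr183, the oxysterol receptor, read log2 11.83 and 11.89 in WT against 11.80 and 11.81 in Id2 KO. Both Id2 KO values lay just under both WT values, and the distance was smaller than the gap between the WT arrays. The difference of -0.05 had a 95% interval of -0.23 to 0.13 before adjustment and did not pass (adjusted p = 0.802), so a change in Gpr183 beyond these bounds was not seen at this precision. It stayed negative under all alternatives, between -0.10 and -0.02.

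S1pr1, the sphingosine phosphate receptor that lets cells leave tissue toward blood or lymph, was at 7.73 and 7.70 in WT and at 8.10 and 8.17 in Id2 KO. The groups did not overlap, and the difference of 0.42 (95% interval 0.24 to 0.61, 1.34-fold) was larger than either gap between replicates. It passed in limma (adjusted p = 0.0124), and its adjusted p ranged from 0.00685 to 0.0811 over the alternatives. The call was lost without WT replicate 1 (0.44, adjusted p = 0.0781) and without WT replicate 2 (0.41, adjusted p = 0.0811). S1pr1 is also a receptor of B and T cells, and the B cell markers rose in the same arrays while 1 of 5 tested T and NK cell markers fell. The part of these cells in its rise was not tested.

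Ccr7, which guides mature dendritic cells to the T cell zone and is also carried by B and T cells, was at 11.01 and 10.99 in WT and at 11.27 and 11.45 in Id2 KO. Both Id2 KO arrays were higher, replicate 2 more than replicate 1. The difference of 0.35 (95% interval 0.15 to 0.56, 1.28-fold) passed narrowly (limma, adjusted p = 0.0439, range 0.0195 to 0.194 over the alternatives). It did not pass without a filter (adjusted p = 0.0811), with renewed quantile normalization (0.30, adjusted p = 0.0879) or with arrays centred on the tested genes (0.30, adjusted p = 0.0957). It also did not pass without WT replicate 1 (0.37, adjusted p = 0.194), WT replicate 2 (0.34, adjusted p = 0.181) or KO replicate 2 (0.27, adjusted p = 0.14). Of the mature dendritic cell markers, the actin-bundling gene Fscn1 (1.36), the signalling inhibitor gene Socs2 (0.80) and the NF-κB gene Relb (0.42) rose. The chemokine genes Ccl22 (0.02) and Ccl17 (0.01), the costimulatory gene Cd86 (0.11) and Cd40 (0.05) did not pass. Cd83 was lower on both Id2 KO arrays, with a difference of -0.19 (95% interval -0.37 to -0.01 before adjustment). It did not pass either (limma, adjusted p = 0.207). Socs2 lost its call without WT replicate 1 (adjusted p = 0.070) and WT replicate 2 (adjusted p = 0.0647), and Relb without these (adjusted p = 0.233 and 0.0623) and without KO replicate 2 (adjusted p = 0.0939). Relb also did not pass without a filter (adjusted p = 0.0557), with renewed quantile normalization (0.36, adjusted p = 0.0658) or with arrays centred on the tested genes (0.36, adjusted p = 0.0534). The part of mature cells or of B cells in the rise of Ccr7 was not tested.

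Cxcr2, the receptor of neutrophils for Cxcl1 and related chemokines, had the largest difference of the 33 receptors in either direction. It was at 7.86 and 8.06 in WT and at 6.55 and 6.48 in Id2 KO, so the groups lay far apart and the gap between replicates was 0.20 at most. It fell by 1.44 on the log2 scale (95% interval -1.65 to -1.23, adjusted p = 7.21e-05), which put Cxcr2 at percentile 0.15 of the differences of all tested genes, and its call held wherever it was tested. Both Id2 KO values lay below the filter level, so Cxcr2 was tested only because of its WT level, and the size of the fall is not settled. The neutrophil markers fell in the same arrays, with differences from -1.21 (Prtn3, below the filter level on both Id2 KO arrays) to -4.19 (Ngp), and the part of neutrophils in the fall of Cxcr2 was not tested.

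Ltb4r1, the high-affinity receptor for leukotriene B4 on neutrophils, effector T cells and some dendritic cells, was at 8.58 and 8.56 in WT and at 7.91 and 8.07 in Id2 KO. All 4 values lay above the filter level and the groups were clearly separate. The difference of -0.58 (95% interval -0.78 to -0.38, 1.49-fold lower) passed in limma (adjusted p = 0.0037) and under every alternative, the adjusted p ranging from 0.00134 to 0.0358. Cxcr2 and Ltb4r1 were the only receptors among the 6 called whose calls held under all alternatives in which they were tested. Ltb4r1 and Cxcr2 are both carried by neutrophils, whose markers fell in the same arrays. The part of neutrophils in the fall of Ltb4r1 was not tested.

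Cxcr3, the receptor for the interferon-induced chemokines Cxcl9 and Cxcl10, was at 8.19 and 8.28 in WT and at 7.78 and 7.83 in Id2 KO. The groups did not overlap, and the difference of -0.43 (95% interval -0.62 to -0.25, 1.35-fold lower) passed (limma, adjusted p = 0.0124). The call was lost without WT replicate 1 (-0.47, adjusted p = 0.0554) and without WT replicate 2 (-0.39, adjusted p = 0.0941), within a range of 0.00572 to 0.0941 over the alternatives. Cxcr3 lies on the X chromosome, as do Cysltr1, P2ry10 and Gpr34. Of these 4, Cxcr3 and Cysltr1 fell, whereas P2ry10 (0.18) and Gpr34 (0.09) did not pass, against 4.24% higher and 3.03% lower calls among the 330 tested X-linked genes. Whether the sex-linked difference between the groups has a part in these values cannot be told apart from the knockout.

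**Figure D2:**
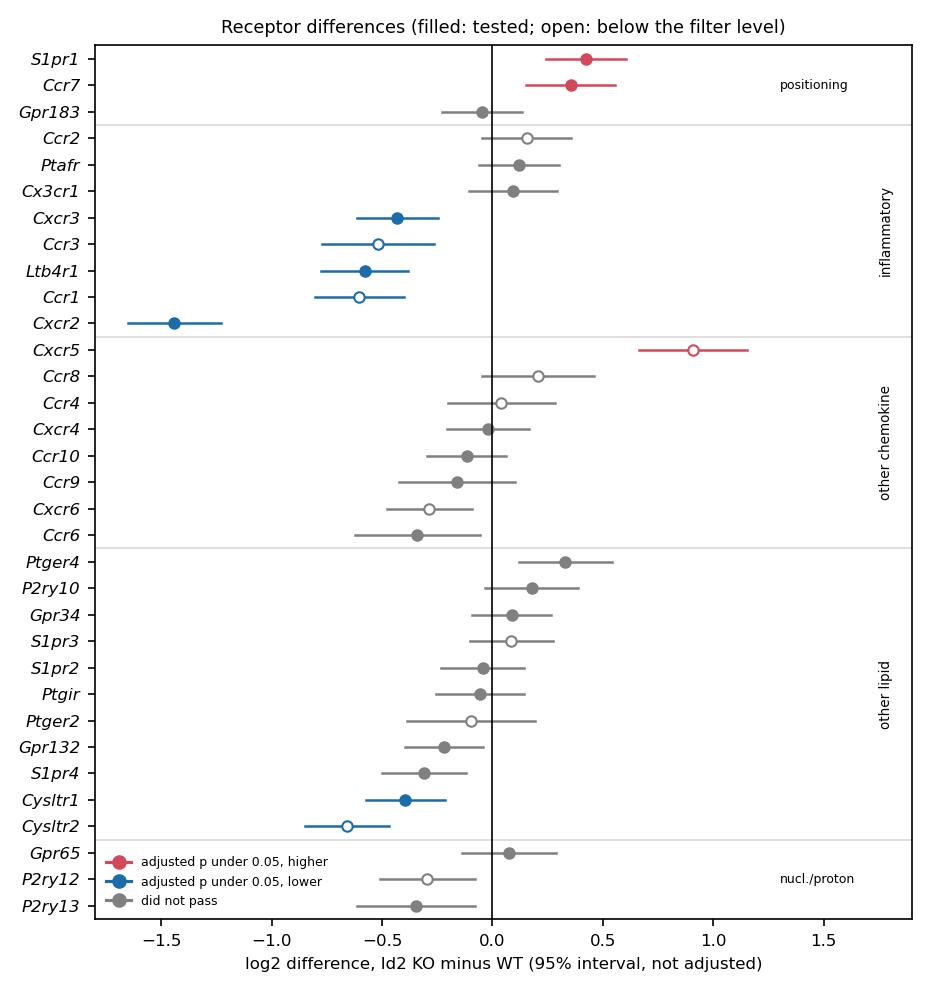
Difference in log2 intensity, Id2 KO minus WT, for each receptor (vertical axis, ordered within its role), with the 95% interval before adjustment. Red and blue are higher and lower past the adjusted threshold, grey did not pass; filled points come from the fit of tested genes and open points, receptors below the filter level, from the fit without a filter. Cxcr2 lies lowest at -1.44 and Cxcr5 highest at 0.91.

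Of the other inflammatory receptors, Cx3cr1, the fractalkine receptor of monocytes and some cDC2, was at 8.01 and 8.10 in WT and at 8.22 and 8.08 in Id2 KO. These values overlapped, and the difference of 0.09 (95% interval -0.11 to 0.29) did not pass. Ptafr, the receptor for platelet-activating factor, was at 10.17 and 10.18 in WT and at 10.33 and 10.26 in Id2 KO, a difference of 0.12 (-0.06 to 0.30) that did not pass (adjusted p = 0.462) although the groups did not overlap.

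Ccr1, Ccr3 and Ccr2 are neighbours on mouse chromosome 9, with the coding gene Ccr1l1 between Ccr1 and Ccr3 and none between Ccr3 and Ccr2. All 3 had means below the filter level, where intensities lie near the dim end of the arrays, so the sizes given are uncertain. Ccr1, a receptor for Ccl3 and Ccl5 on monocytes and neutrophils, was at 6.59 and 6.65 in WT and at 6.07 and 5.96 in Id2 KO. Ccr3, the eotaxin receptor of eosinophils and basophils, was at 6.51 and 6.82 in WT and at 6.17 and 6.12 in Id2 KO. Both were lower in Id2 KO without overlap, and both passed in the limma fit without a filter, Ccr1 with -0.60 (adjusted p = 0.005) and Ccr3 with -0.52 (adjusted p = 0.0344). Ccr2, which releases monocytes from the bone marrow and is carried by part of the ESAM-low cDC2, was at 6.49 and 6.39 in WT and at 6.54 and 6.64 in Id2 KO, a difference of 0.15 in the other direction that did not pass (adjusted p = 0.493). In the same stretch of the chromosome, Cxcr6, the Cxcl16 receptor, differed by -0.29 (adjusted p = 0.126 without a filter) and Ccr9, the gut-homing receptor also found on pDC, by -0.16 (adjusted p = 0.502). The 2 neighbours that passed therefore stood beside receptors that did not. Neutrophil and monocyte markers fell in the same arrays, while none of 2 tested basophil, mast cell and eosinophil markers passed. The part of these cells in the lower Ccr1 and Ccr3 values was not tested.

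Set side by side, Gpr183, S1pr1 and Ccr7 had a median difference of 0.35, with 2 of 3 higher and none lower, and the 8 measured inflammatory receptors had a median of -0.47. Of the 5 inflammatory receptors that were tested 3 fell and none rose, beside 5.53% higher and 2.52% lower among all tested genes. Without a filter 5 of 8 inflammatory receptors fell and none rose, and only 1 of the 3 positioning receptors rose (S1pr1). Among all genes 2.75% were higher and 1.42% lower in that fit. The distance between both medians was 0.83 on the log2 scale. Computed on single arrays relative to the WT mean, it was 0.74 and 0.90 for the Id2 KO arrays. For the WT arrays it was 0.05 and -0.05. These WT values mirror each other because of this centring and show only the gap between the WT arrays. The distance ranged from 0.72 to 0.90 under the alternatives, but only omitting an array, renewed quantile normalization or the pseudocount could move it. No test is given for this distance, because the receptors are not replicates and the lists were chosen with earlier results of these data known. The positioning side rests on S1pr1 and Ccr7, since Gpr183 differed by less than its replicate spread. The positioning median of 0.35 is the difference of Ccr7 itself, which passed in 7 of 14 alternatives. The inflammatory median includes Ccr1, Ccr2 and Ccr3, whose means lay below the filter level. Ccr2 (0.15), Cx3cr1 (0.09) and Ptafr (0.12) had positive differences and did not pass. Cxcr2, among those that fell, was tested only because of its WT level. In the same arrays neutrophil and monocyte markers fell and B cell markers rose. The part of these cells in the distance between the medians was not tested.

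**Figure D3:**
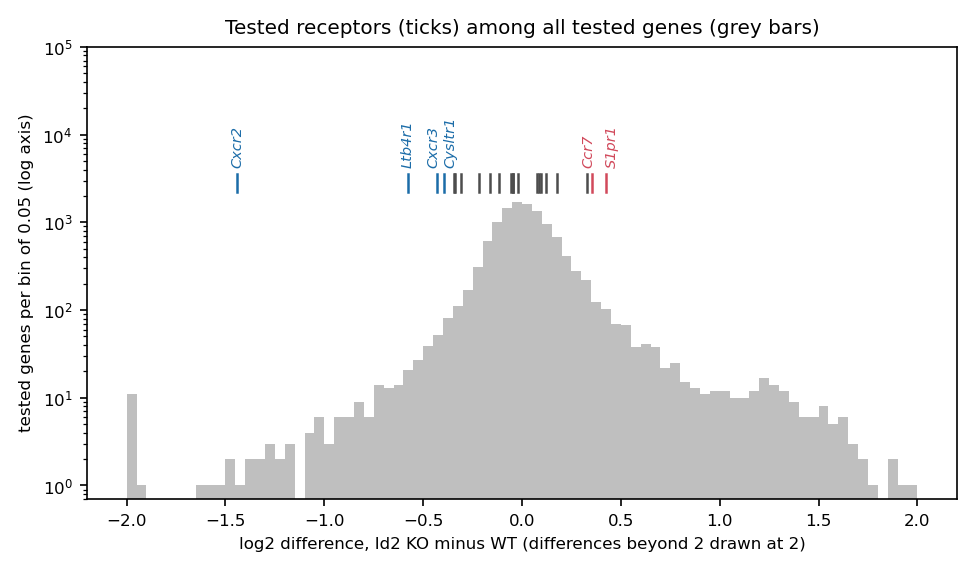
Distribution of the log2 difference, Id2 KO minus WT, over the 11963 tested genes (grey bars, log vertical axis, differences beyond 2 drawn at 2), with a tick for each of the 22 tested receptors. The 6 receptors that passed are named, blue lower and red higher; most receptors lie in the bulk of the distribution, and Cxcr2 at -1.44 stands far to the left.

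To show the DNA letters that E proteins could read at receptors which fell, and at Gpr183, which did not pass, promoter windows of 300 bases were taken from RefSeq on the mouse build GRCm38.p6, from 250 bases before to 50 after a gene's start. A window was at hand for 29 of the 36 receptors and not for S1pr1, Ccr7, Cysltr1, Cxcr5, Ccr10, Gpr34 and Ltb4r2. Capitals mark each match to the E-box letters CANNTG, which read the same on both strands.
Cxcr2: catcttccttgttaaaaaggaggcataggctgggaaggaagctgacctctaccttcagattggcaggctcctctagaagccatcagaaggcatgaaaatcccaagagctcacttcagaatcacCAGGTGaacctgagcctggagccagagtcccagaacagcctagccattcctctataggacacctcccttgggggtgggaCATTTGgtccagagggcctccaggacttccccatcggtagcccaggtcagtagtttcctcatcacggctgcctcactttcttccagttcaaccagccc
Cxcr3: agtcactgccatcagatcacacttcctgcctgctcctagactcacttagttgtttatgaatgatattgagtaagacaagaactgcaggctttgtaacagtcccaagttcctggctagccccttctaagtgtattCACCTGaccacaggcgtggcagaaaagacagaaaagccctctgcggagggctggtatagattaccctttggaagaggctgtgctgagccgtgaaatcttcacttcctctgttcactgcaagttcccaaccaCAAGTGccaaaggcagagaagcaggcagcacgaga
Ltb4r1: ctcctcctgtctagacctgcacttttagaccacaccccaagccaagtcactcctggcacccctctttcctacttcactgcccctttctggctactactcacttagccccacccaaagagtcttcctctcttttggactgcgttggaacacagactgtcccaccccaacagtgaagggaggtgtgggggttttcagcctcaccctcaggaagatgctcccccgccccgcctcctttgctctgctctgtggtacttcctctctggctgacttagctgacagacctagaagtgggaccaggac
Gpr183: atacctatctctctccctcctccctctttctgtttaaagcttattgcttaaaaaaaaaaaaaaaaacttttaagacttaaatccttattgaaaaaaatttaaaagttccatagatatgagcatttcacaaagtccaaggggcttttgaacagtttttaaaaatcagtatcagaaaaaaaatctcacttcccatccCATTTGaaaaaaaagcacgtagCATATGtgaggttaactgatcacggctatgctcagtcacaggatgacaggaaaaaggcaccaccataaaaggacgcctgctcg
The Cxcr2 window is chr1:74153744-74154043 on the plus strand, the Cxcr3 window chrX:101734098-101734397 on the minus strand, the Ltb4r1 window chr14:55765712-55766011 on the plus strand and the Gpr183 window chr14:121965144-121965443 on the minus strand. Cxcr2 and Cxcr3 each held 2 matches, 1 of them in the form CAGGTG or, on the other strand, CACCTG, at 127 and 116 bases before the start. Gpr183 held 2 matches of other forms, and the Ltb4r1 window held none. Of the 29 receptor windows, 26 held at least 1 match to CANNTG, or 89.7%, against 72.2% of 27025 windows of the same length, 1 for each gene in the table. Where the table lists several windows for a gene, as for Ccr6 and P2ry10, the first was taken. CAGGTG or CACCTG occurred in 7 receptor windows and 20.03% of all windows, and CAGCTG in 8 receptor windows and 16.1% of all windows. With the last listed window of each gene instead, CAGCTG occurred in 7 receptor windows and 16.3% of all windows, and the other receptor counts were the same. A match describes letters in the window, not a binding site.

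Among the other chemokine receptors, none of the 4 tested passed in limma in either direction, and 1 (Ccr6) had an unadjusted p under 0.05. Cxcr4, the Cxcl12 receptor that holds cells in marrow and stroma, was at 12.83 and 12.93 in WT and at 12.84 and 12.87 in Id2 KO. Its values overlapped and its difference of -0.02 had a 95% interval of -0.21 to 0.16. Ccr10, the skin and mucosa homing receptor, differed by -0.12 (-0.30 to 0.06). Ccr6, the Ccl20 receptor of B cells and some dendritic cells, was at 7.17 and 7.20 in WT and at 7.05 and 6.64 in Id2 KO. Its Id2 KO arrays lay 0.41 apart, and the difference of -0.34 did not pass (adjusted p = 0.159) except without KO replicate 1 (-0.54, adjusted p = 0.00815).

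Cxcr5, the Cxcl13 receptor that leads B cells and some cDC2 into follicles, lay below the filter level by its mean, at 6.01 and 6.21 in WT and at 6.91 and 7.12 in Id2 KO. Both Id2 KO arrays were above the level and both WT arrays below it. The difference of 0.91 (95% interval 0.66 to 1.15, at the dim end of the scale) passed in limma without a filter (adjusted p = 0.00155). It was the largest positive difference of the receptors. In that fit 1 of the 11 receptors below the level rose and 3 fell, against 0.439% and 0.74% of all genes below it. The B cell markers rose in the same arrays, between 0.40 (Cd79b) and 1.72 (Ebf1, itself below the filter level), and their part in the rise of Cxcr5 was not tested. Ccr4 (0.04) and Ccr8 (0.21), receptors of skin-homing and regulatory T cells, did not pass without a filter, with values between 5.28 and 6.32.

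**Figure D4:**
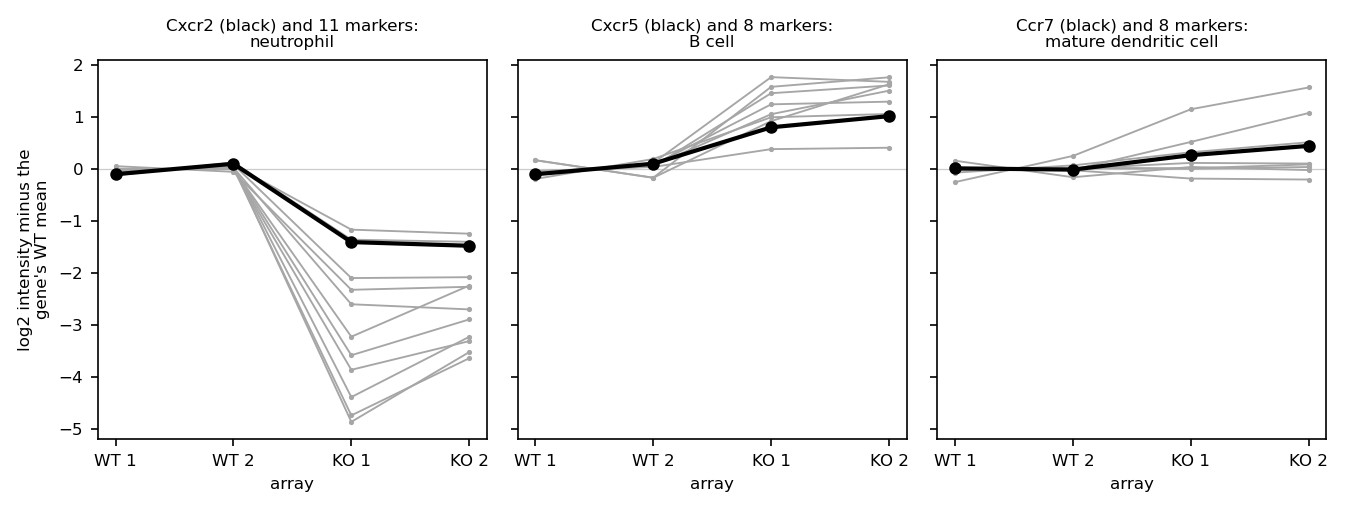
Log2 intensity on each array minus the gene's WT mean (vertical axis) for Cxcr2 with 11 neutrophil markers, Cxcr5 with 8 B cell markers and Ccr7 with 8 mature dendritic cell markers. Black is the receptor and grey lines are single markers, joined across arrays only to show which values belong to 1 gene. Cxcr2 falls less than most neutrophil markers, Cxcr5 rises less than most B cell markers, and Ccr7 lies among the mature dendritic cell markers, most of which stay near 0.

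Among the receptors for other lipids, both receptors for cysteinyl leukotrienes, the ligands made by mast cells and myeloid cells through Alox5 and Ltc4s, were lower. Cysltr1 was at 7.23 and 7.27 in WT and at 6.84 and 6.87 in Id2 KO, close above the filter level. Its difference of -0.39 (95% interval -0.57 to -0.22) passed (limma, adjusted p = 0.0161, range 0.0078 to 0.101). The call was lost without WT replicate 1 (-0.41, adjusted p = 0.0913), without WT replicate 2 (-0.38, adjusted p = 0.101) and without KO replicate 1 (-0.38, adjusted p = 0.053). Cysltr2 was at 6.55 and 6.52 in WT and at 5.86 and 5.90 in Id2 KO, below the filter level on every array. It differed by -0.66 (95% interval -0.85 to -0.47) and passed without a filter (adjusted p = 0.00219). The replicates of both genes agreed within 0.05, far less than the distance between the groups.

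The sphingosine phosphate receptors other than S1pr1 did not rise with it. S1pr4, a receptor of lymphoid and dendritic cells, was at 7.80 and 7.81 in WT and at 7.43 and 7.56 in Id2 KO, a difference of -0.31 without overlap (95% interval -0.50 to -0.12) that missed the threshold (adjusted p = 0.0604). It passed with renewed quantile normalization (-0.32, adjusted p = 0.041), with arrays centred on the tested genes (-0.36, adjusted p = 0.0349) and without KO replicate 2 (-0.37, adjusted p = 0.0419). S1pr2, which confines B cells to the germinal centre, differed by -0.04 (95% interval -0.23 to 0.14) with overlapping values between 7.29 and 7.41. S1pr3 lay below the filter level at 6.02 and 6.03 in WT and at 6.12 and 6.10 in Id2 KO and did not pass.

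Ptger4, the prostaglandin E2 receptor that supports migration of dendritic cells, was at 9.77 and 9.87 in WT and at 10.24 and 10.06 in Id2 KO. The Id2 KO arrays were both higher, and the difference of 0.33 (95% interval 0.12 to 0.54) missed the threshold (adjusted p = 0.0689) but passed without KO replicate 2 (0.42, adjusted p = 0.0291). The other prostaglandin receptors, Ptger2 (-0.10, below the filter level) and the prostacyclin receptor Ptgir (-0.06), had overlapping groups. Gpr132, a receptor for oxidised fatty acids and lysophospholipids, was at 11.09 and 11.06 in WT and at 10.85 and 10.86 in Id2 KO. Its groups did not overlap and its replicates agreed closely, yet the difference of -0.22 (95% interval -0.40 to -0.04) did not pass (adjusted p = 0.147). The lysophosphatidylserine receptors P2ry10 (0.18, -0.04 to 0.39) and Gpr34 (0.09, -0.09 to 0.26) were higher on both Id2 KO arrays and did not pass.

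P2ry12 and P2ry13, receptors for adenosine diphosphate, lie side by side on chromosome 3 within the gene Med12l. P2ry13 was at 7.57 and 7.67 in WT and at 7.45 and 7.10 in Id2 KO, and the fitted value of -0.34 missed the threshold (adjusted p = 0.129), while without KO replicate 1 it passed (-0.52, adjusted p = 0.0124). P2ry12, the receptor of platelets and microglia, lay below the filter level, at 6.22 and 6.40 in WT and at 5.98 and 6.05 in Id2 KO (-0.30, adjusted p = 0.156 without a filter). Both neighbours had lower values on both Id2 KO arrays. Gpr65, a sensor of protons, overlapped between the groups with a difference of 0.07 (95% interval -0.14 to 0.29).

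For the 16 tested receptors that did not pass, the 95% interval reached a median of 0.19 on the log2 scale to each side of the difference, and at most 0.28. For 5 of the 16 the interval before adjustment lay wholly on 1 side of 0, namely Ptger4 above and Ccr6, S1pr4, Gpr132 and P2ry13 below. Misses of the threshold therefore do not show that these receptors were equal between the groups.

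**Figure D5:**
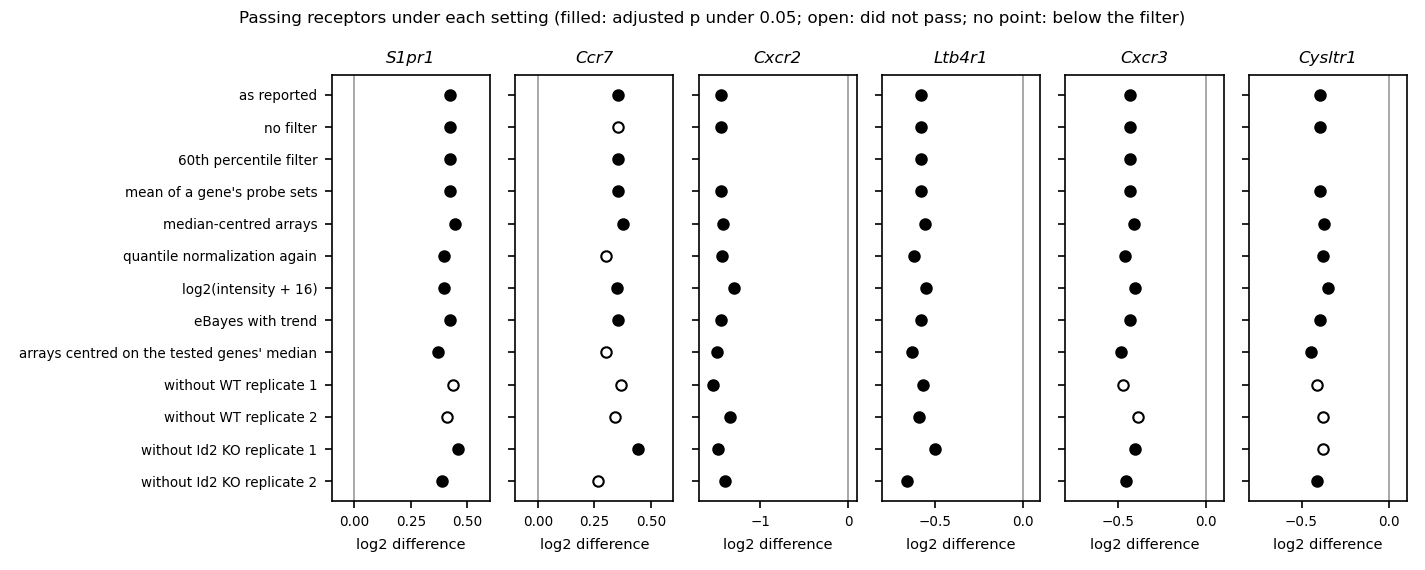
Log2 difference, Id2 KO minus WT (horizontal axes), of the 6 receptors that passed, under the reported setting and the alternatives named at the left. Filled points have an adjusted p under 0.05, open points did not pass, and a missing point means that the gene lay below that setting's filter. Cxcr2 and Ltb4r1 are filled wherever they were tested, while S1pr1, Ccr7, Cxcr3 and Cysltr1 are open without either WT array.

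The genes that act around the receptors were also tested. Of 49 tested genes in 3 lists (58 measured), 1 rose and 2 fell, or 2.04% and 4.08%, beside 5.53% higher and 2.52% lower among all tested genes. Among atypical, complement and further chemoattractant receptors, C5ar1, the receptor for complement C5a on neutrophils, monocytes and macrophages, was at 7.31 and 7.30 in WT and at 6.41 and 6.59 in Id2 KO. It fell by 0.81 (95% interval -1.01 to -0.60, adjusted p = 7.02e-04), as 1 of 9 tested. Both Id2 KO values lay below the filter level, so C5ar1 was tested only because of its WT level, and the size of the difference is not settled. Neutrophil, monocyte and macrophage markers were lower in the same arrays, and their part in the fall of C5ar1 was not tested. The lysophosphatidic acid receptor gene Lpar6 (-0.24) and S1pr5 (-0.22) had the next largest differences of the list and did not pass. None of the 12 tested genes for oxysterol, sphingosine phosphate, leukotriene and prostaglandin metabolism passed in limma, and 1 (Cyp27a1) had an unadjusted p under 0.05. Alox5, the first enzyme of leukotriene synthesis, lay just below the filter level by its mean and differed by -0.69 (7.16 and 7.03 in WT, 6.48 and 6.35 in Id2 KO), which passed without a filter (adjusted p = 0.00333). The oxysterol hydroxylase gene Cyp7b1 differed by 0.36 below the filter level and did not pass. Ch25h, the enzyme that starts the synthesis of the Gpr183 ligand, lay below the filter level on every array. Its difference of -0.08 did not pass without a filter (limma, adjusted p = 0.744).

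Of 28 tested genes for signalling below the receptors, 1 rose and 1 fell, or 3.57% each. Among all tested genes, 5.53% were higher and 2.52% lower. Klf2, a transcription factor known to drive S1pr1 in lymphocytes, was at 9.82 and 9.85 in WT and at 9.36 and 9.45 in Id2 KO and so fell by 0.43 (95% interval -0.61 to -0.24, adjusted p = 0.0124), in the opposite direction to S1pr1. Its call was lost without WT replicate 1 (-0.44, adjusted p = 0.0783) and without WT replicate 2 (-0.42, adjusted p = 0.0797). Grk6, a kinase that switches off active chemoattractant receptors, rose by 0.39 (adjusted p = 0.0335), a call lost without a filter (adjusted p = 0.0619), without WT replicate 1 (0.29, adjusted p = 0.275) and without KO replicate 1 (0.36, adjusted p = 0.106). Cd69, whose protein binds S1pr1 and takes it off the surface, differed by -0.33 (adjusted p = 0.125), and the G protein regulator gene Rgs2 by -0.29 (adjusted p = 0.0807). The inhibitory G protein gene Gnai2 (0.03), the arrestin genes Arrb1 (0.07) and Arrb2 (-0.03) and the migration gene Dock2 (-0.03) differed by at most 0.07 in either direction and did not pass; the sign of each of these 4 genes turned under at least 1 alternative.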

How the data were processed

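Gene expression was measured on 1 Affymetrix array per sample, 2 WT and 2 Id2 KO. The deposited table gives each probe set a linear-scale intensity on each array, between 5.19 and 18624. Per the submitters' processing notes, Affymetrix Expression Console and RMA were used, with no version. Scanner files and detection calls were not used here. RMA values are normally on the log2 scale, so the values appear to have been returned to a linear scale, which no source used here records. Total RNA was amplified with a NuGen Ovation kit, per the labels' protocols. The array medians of the deposited intensity were 134, 130, 128 and 132.

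Intensities were log2-transformed as they stood. Probe sets were named through the platform annotation, updated through gene identifiers with RefSeq GRCm38.p6 (21698 of 21789 probe sets with 1 symbol matched; 1621 had several symbols and 5443 none listed). The brightest probe set stood for a gene. The filter kept the 11963 of 19938 genes whose mean log2 value exceeded the 40th percentile, 6.77. For these, lmFit and eBayes of limma 3.58.1 (R 4.3.3) gave the difference Id2 KO minus WT with a two-sided test. There were 2 residual degrees of freedom, to which moderation added 6.77. Precision is limited by how few arrays there are. The fit was tested on simulated data first.

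The receptors, the lists of related and marker genes and the roles were chosen with earlier results of these data known. Named genes were all measured receptors, Id2, the sex-linked genes, the called and 2 next largest members of each related list, and the leading markers; Ch25h, Gnai2, Arrb1, Arrb2, Dock2 and some markers were named after their values were seen. Alternatives changed the filter, the probe set rule, the scaling, a pseudocount of 16, the moderation, the replicate block and each array in turn.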

Additional observations from a re-analysis of the deposited data

How the results depend on the processing

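The 6 calls kept their sign under all 14 alternatives in which they were tested. Leaving out each array in turn gave 2 to 7 receptors called (6 as reported), 459 to 1171 of all tested genes called (962 as reported) and 1 to 6 related genes called (3 as reported). Over the same omissions the median receptor difference was -0.086 to -0.034 (-0.05 as reported) and the distance positioning minus inflammatory 0.72 to 0.90 (0.83 as reported). The fewest calls came without WT replicate 1. The median receptor difference turned to 0.081 with the 60th percentile filter, which tested fewer receptors, and was -0.083 with quantile normalization again and -0.11 with arrays centred on the tested genes' median. That centring moves every gene by the same -0.05; the cause of the quantile shift was not tested. Receptors called numbered 9 without a filter and 4 with the 60th percentile filter.

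Same-numbered samples deviated against each other (r = -0.14 over genes), so the numbers were not taken as pairs. With the replicate block, receptors called numbered 4, all tested genes called 684 and related genes called 2; Ccr7, Cysltr1 and Grk6 did not pass (adjusted p = 0.0991, 0.0518 and 0.0841). With the crossed pairing, receptors called numbered 9, all tested genes called 1380 and related genes called 4. The crossed pairing and the centring on tested genes were chosen after seeing the data. Where an omission left 1 array in a group, that array was assumed to vary like the other group's. With 2 arrays a group and no detection calls used, small differences and those of dim receptors can be missed.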
